A study of Capra hircus with 8 samples.

Results

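The transcriptome of the fertilised goat embryo at the 8-cell stage was described from 2 libraries labelled IVF, for in vitro fertilisation, in which eggs and sperm are joined in a dish. Its members were the rows of the 8-cell messenger RNA table that were not also named among the annotated long non-coding RNAs, 20602 of 22107 rows, and genes were ranked by the mean of the 2 libraries. The series holds 8 libraries in 4 groups of 2, fertilised embryos and embryos cloned by nuclear transfer from a body cell, each at the 4-cell and the 8-cell stage. Only the 2 IVF 8-cell libraries entered here, so 1 group is described and no groups are compared. The embryos were lysed whole and amplified by Smart-seq2, a method that copies full-length polyadenylated RNA from very few cells. The labels name no knockout, transgene or treatment beyond fertilisation for these embryos, and they do not say how many embryos made up a library or whether the 2 libraries are separate pools of embryos. In a whole-embryo library, fewer cells of a kind and less RNA per cell cannot be told apart.

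An egg enters development with a store of messenger RNA made during oocyte growth, and the first cleavages run on that store. The store is then cleared by adaptor proteins that bring deadenylases to the RNA, while the embryo's own genes are switched on, a step called embryonic genome activation that in goats and cattle falls around the 8-cell stage. An embryo sampled at that time can therefore carry oocyte messages and newly made messages side by side.

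Values are FPKM, fragments per kilobase of gene and per 1000000 fragments, so that levels of genes of different length can be set side by side. Both libraries' values are given for each gene described, replicate 1 first, since 2 values carry no usable error of their own. The totals behind the values were 27499371 and 30345379 reads, recovered from the values of short genes of known length. At that depth 1 read in a gene of 2000 bases was worth 0.0182 and 0.0165 FPKM, and a listed 0 left room for 3 reads, or 0.0545 and 0.0494 FPKM (a limit that covers counting error alone). A gene was called detected at 1 FPKM or more in both libraries.

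Of the 20602 genes, 7995 (38.8%) were detected, 649 reached 1 FPKM in replicate 1 only and 744 in replicate 2 only. The other 11214 (54.4%) were under 1 FPKM in both. The median over all genes was 0.508 FPKM, 3922 genes (19.04%) had a mean of 10 FPKM or more, and 705 (3.42%) one of 100 or more. Only 28 genes averaged 1000 FPKM or more, yet these held 24.95% and 23.3% of the summed FPKM of the 2 libraries. The 677 genes between 100 and 1000 FPKM held a further 43.5% in each. At the other end, 3768 genes (18.3%) were listed at 0 in both libraries. The 8093 genes with reads but a mean under 1 FPKM rested on a median of 7 reads in each library, so their single values are imprecise. Reads per gene were recovered from the values as the smallest numbers that fit.

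**Figure D1:**
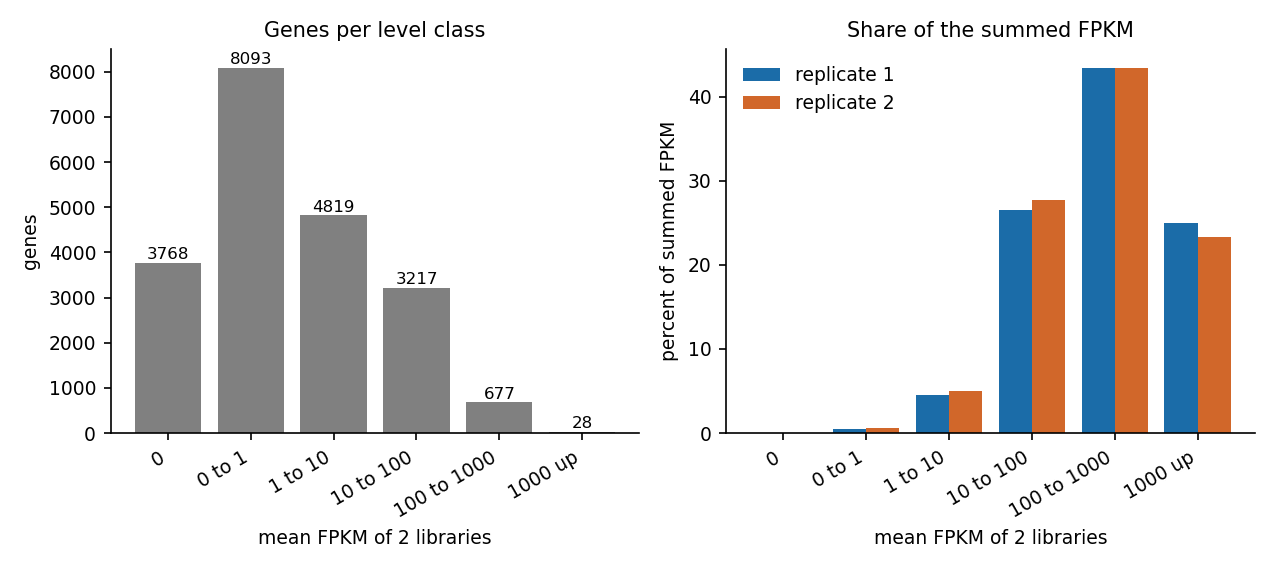
Number of genes (left) and percent of the summed FPKM in each library (right, bars for replicates 1 and 2) per class of mean FPKM. Most genes sit at 0 or under 1 FPKM, while the 28 genes at 1000 FPKM or more hold 24.95% and 23.3% of the sum.

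Detection followed gene type. Among 18255 protein-coding genes 7770 (42.6%) were detected, against 109 of 1510 pseudogenes (7.22%) and 1 of 51 immunoglobulin and T cell receptor V segments, gene pieces that lymphocytes join to make their receptors. Protein-coding genes with a symbol were detected in 46.2% of cases (7128 of 15421) and those known only by a LOC number in 22.7% (642 of 2834). LOC genes made up 47.8% of the genes listed at 0 in both libraries.

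The most abundant message per length by the mean was TMSB4X, which encodes the actin-binding peptide thymosin beta 4, at 16663 and 11359 FPKM. PAIP1, a partner of the poly(A)-binding protein in translation, came next at 14209 and 12410 FPKM. Both libraries placed these well above every other gene with a symbol. TMSB4X was the higher of the pair in replicate 1 and PAIP1 in replicate 2. By reads, without division by length, PAIP1 was the higher in both. It took 1192175 and 1149002 reads, 4.34% and 3.79% of the totals, and TMSB4X took 280889 and 211306. The 10 highest genes held 17.2% and 16.1% of the summed FPKM, and 7 genes were in the top 10 of both libraries taken alone.

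Several of the next genes act in cell division and protein turnover. PTTG1, the securin that delays the parting of sister chromatids until anaphase, stood at 8768 and 7669 FPKM. CKS1B, a small subunit of cyclin-dependent kinases, stood at 3495 and 3804. PCNA, the sliding clamp of DNA replication, stood at 1814 and 1361. All 3 belong to the 28 genes with a mean of 1000 FPKM or more.

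The ubiquitin system was represented by SKP1, a subunit of SCF ubiquitin ligases, at 3786 and 3090 FPKM, and by UBE2D3, a ubiquitin-conjugating enzyme, at 2820 and 2126 FPKM. ANAPC15, a subunit of the anaphase-promoting complex, was at 1025 and 852 FPKM. SUMO2, a small modifier of the ubiquitin kind, was at 1121 and 1251. The ubiquitin precursor UBB was the least steady by ratio of the 18 genes in the plot of the most abundant genes, at 2763 FPKM in replicate 1 and 1040 in replicate 2.

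BTG4, an adaptor that brings the CCR4-NOT deadenylase to maternal messages, ranked 5 at 5070 and 6040 FPKM. TBPL1, a relative of the TATA-binding protein, stood at 2677 and 2640 FPKM, while TBP itself stood at 13.2 and 18.7. Nuclear transport was marked by KPNA7, the importin alpha of the oocyte and early embryo, at 1373 and 1596 FPKM, and by the pore protein NUP54 at 1438 and 1331 FPKM. Among metabolic and protective genes, PRDX6, a peroxiredoxin, was at 2215 and 2312 FPKM, FTL, the ferritin light chain, at 1767 and 2754, and CDO1, which oxidises cysteine, at 2117 and 1689. The centrosome protein CETN2 (2260 and 2123) and the calcium sensor CALM2 (1455 and 1264) completed the upper ranks together with C2H2orf66 (1853 and 1758).

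**Figure D2:**
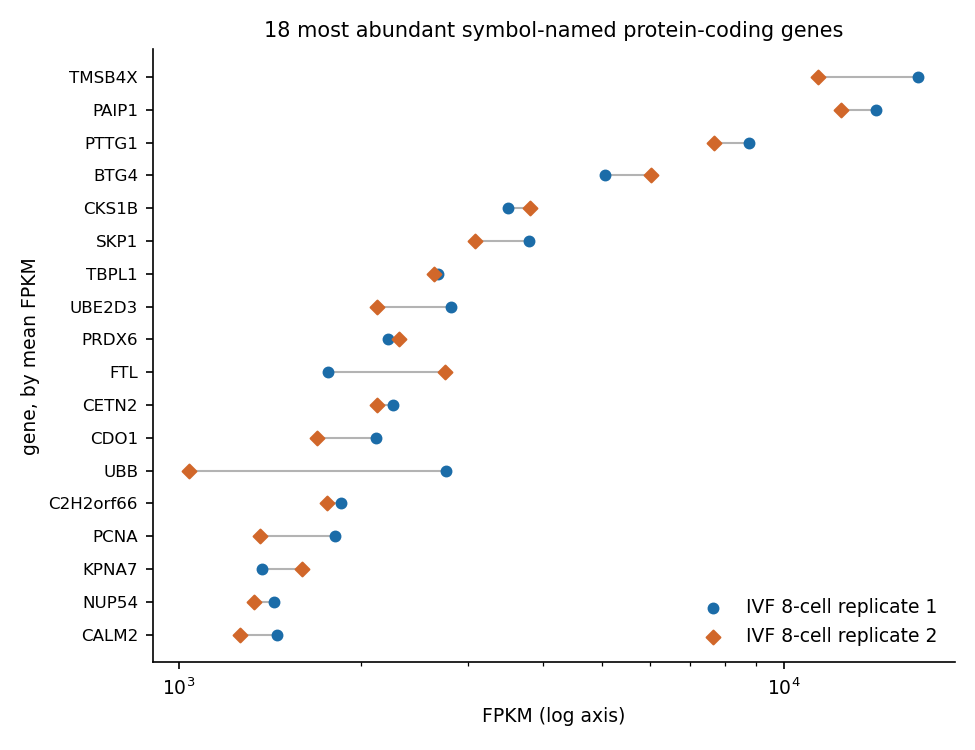
FPKM on a log axis of the 18 most abundant protein-coding genes with a symbol, circles for replicate 1 and diamonds for replicate 2. TMSB4X and PAIP1 lead in both libraries, and UBB has the widest gap by ratio, 2763 against 1040.

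Among genes without a symbol, LOC102171358 was highest at 9665 and 9542 FPKM, rank 3 of all genes, with the libraries almost equal. In the gene order of RefSeq assembly ARS1.2 it lies between MS4A3 and TCN1, which were both under 1 FPKM. LOC108634189 (2475 and 1503 FPKM) sat in a run of 11 adjacent LOC genes that all had a mean of 10 FPKM or more, from LOC108634188 to LOC102181365. That was the longest such run among 19480 genes with a place in the order, of which 19.7% had a mean of 10 or more. In all but LOC102180826 of its members replicate 1 held the higher value. LOC102178151 (931 and 701 FPKM) lies beside GDF3, a TGF-beta family ligand at 55.3 and 57.1 FPKM. The other LOC genes of the 10 highest were LOC102175427 (1686 and 1441), LOC102175160 (1670 and 1433), LOC102186806 (1390 and 1124), LOC102183306 (1340 and 655), LOC102176222 (1106 and 745), LOC102191603 (958 and 376) and LOC102168768 (764 and 566). Replicate 1 was higher in each, and the table gives no product name for any of them.

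Oocyte genes were still abundant. All 8 genes found of the egg coat and oocyte growth factor list were detected, with a median of 241 FPKM beside 0.508 over all genes. Another 8 names of the list, ZP1 among them, could not be matched to a single row. ZP2, a glycoprotein of the zona pellucida to which sperm bind, stood at 905 and 942 FPKM, and ZP4 at 548 and 842. BMP15 (474 and 460) and GDF9 (509 and 404), the growth factors by which the oocyte signals to its follicle, were of the same order. ZP3 was far lower at 23.3 and 27.3 FPKM, and the lowest of the list were the sperm receptor IZUMO1R (7.94 and 13.7), the egg protease ASTL (3.30 and 5.93) and CD9 (3.56 and 3.79), a membrane protein needed for fusion with sperm.

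The subcortical maternal complex is a protein assembly under the oocyte membrane that contains NLRP proteins and is needed for the first cleavages. The list joined genes of this complex with other NLRP genes, so its counts are not those of the complex alone. Of the 11 genes found, 8 (72.7%, beside 38.8% over all genes) were detected, with a median of 11.2 FPKM. Another 3 names, OOEP, NLRP4 and NLRP7, could not be matched to a single row. NLRP14 (309 and 444) and NLRP9 (122 and 199) stood above NLRP2 (41.1 and 48.0), KHDC3L (18.8 and 26.3) and NLRP13 (10.5 and 20.9). PADI6 (8.84 and 13.6), NLRP8 (6.32 and 14.0) and TLE6 (4.28 and 5.05) were lower, and NLRP5, a core member of the complex, was only at 0.200 and 0.786 FPKM. ZBED3 (0.720 and 0.504) and NLRP12 (0.0162 and 0) were under 1 FPKM as well. Replicate 2 held the higher value for every one of the 8 detected members. Over all 8741 genes with a mean of 1 FPKM or more, it was the higher for 4876.

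Of 19 other maternal nuclear and meiotic genes found, 15 (78.9%, beside 38.8% over all genes) were detected, with a median of 33.1 FPKM. Another 5 names of the list, DPPA3 among them, could not be matched to a single row. After KPNA7, the highest were BCL2L10, an inhibitor of cell death in the oocyte, at 686 and 776 FPKM, and WEE2, the kinase that keeps oocytes in meiotic arrest, at 478 and 618. FBXO43 (98.3 and 136.7) and MOS (38.1 and 78.5), which sustain the second meiotic arrest, followed with SYCP3, a part of the synaptonemal complex, at 115 and 112. The transcription factors of the growing oocyte were low, FIGLA at 2.75 and 1.05 and NOBOX at 0.931 and 1.72, but LHX8 was at 31.8 and 34.5.

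Most genes of message storage and clearance were present. Of the 33 genes found, 31 (93.9%, beside 38.8% over all genes) were detected, with a median of 20.3 FPKM. Another 3 names, MSY2, TUT4 and TUT7, could not be matched to a single row. Beside BTG4 stood IGF2BP3, an RNA-binding protein, at 368 and 552 FPKM, and the deadenylase subunit CNOT7 at 347 and 333. ZAR1L, a zygote arrest protein, was at 195 and 184, while its relative ZAR1 was at 1.45 and 1.73. CPEB1, which controls polyadenylation of stored messages, was at 48.1 FPKM in replicate 1 and 133 in replicate 2, one of the widest gaps in that direction.

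Genome activation regulators were present as well. Of the 22 genes found, 18 (81.8%, beside 38.8% over all genes) were detected, with a median of 6.59 FPKM, or 4.38 without replicate 1. That share does not set the list apart. Lists of general cell function ranged from 67.5% (cytoskeleton and adhesion) to 91.2% (heat shock genes and chaperones). Another 14 names of the list, such as DUX4, TPRX1 and ZSCAN4, could not be matched to a single row, so their levels are not known. The highest were homeobox genes of the paired class known from the genome activation of other mammals: LEUTX at 577 and 372 FPKM, ARGFX at 497 and 105, and DUXA at 297 and 46.1. LEUTX ranked 107 of all genes and ARGFX 195. DPPA4, a chromatin protein of pluripotent cells, stood at 124 FPKM in replicate 1 and 4.06 in replicate 2, on 3059 and 111 reads. Its partner DPPA2 was at 10.05 and 2.66.

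The other regulators were lower. OTX2, a homeobox factor, was at 31.4 and 9.63 FPKM, TFAP2C, an AP-2 factor of early embryo and trophoblast, at 23.2 and 4.70, and KLF17, a zinc finger factor of human preimplantation embryos, at 8.89 and 1.96. Replicate 1 was the higher in each of these. The subunits of NF-Y, the CCAAT-binding factor, ran the other way: NFYB 42.2 and 60.1, NFYC 5.17 and 8.38, NFYA 1.57 and 2.19. Also detected were ATF1 (23.9 and 9.41), GABPA (17.8 and 13.9), KLF3 (10.96 and 4.70), KLF4 (8.05 and 4.76), SP1 (5.41 and 3.59), KLF5 (4.16 and 2.93) and KLF6 (5.01 and 1.80). OTX1 (0.982 and 0.783), NR5A2 (0.290 and 0.222) and CRX (0.109 and 0) were under 1 FPKM, and DPRX was listed at 0 in both.

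A further list held genes tied to genome activation by studies in other mammals. Of the 18 found, 15 (83.3%, beside 38.8% over all genes) were detected, with a median of 8.43 FPKM, or 5.46 without replicate 1. Another 15 names, such as KDM4E, TRIM43 and PRAMEF1, could not be matched to a single row, so their levels are not known. SUPT4H1, a transcription elongation factor, stood at 325 and 479 FPKM, HSPA8, a constitutive HSP70 chaperone, at 322 and 228, and HNRNPC, which binds nascent RNA, at 170 and 163. MYC was at 16.7 and 4.80.

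Genes of pluripotency and of the first lineages were mostly low. Of 39 found, 15 (a share close to the 38.8% over all genes) were detected, and the median was 0.839 FPKM. The highest were the Hippo pathway effector YAP1 (39.6 and 40.2), the LIF receptor LIFR (26.9 and 28.3) and AMOT, a regulator of YAP1 (16.9 and 23.0). POU5F1, the core pluripotency factor OCT4, was at 5.27 and 6.15 FPKM. NANOG was at 17.3 and 2.76, and ZFP42, also called REX1, was at 11.2 FPKM on 277 reads in replicate 1 and listed at 0 in replicate 2. SOX2 (0.151 and 0.0342), CDX2 (0.0383 and 0.0869) and GATA6 (0.238 and 0.160), factors of inner cell mass, trophectoderm and primitive endoderm, were all under 1 FPKM. TEAD4, KRT18, HAND1 and UTF1 were listed at 0 in both libraries.

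**Figure D3:**
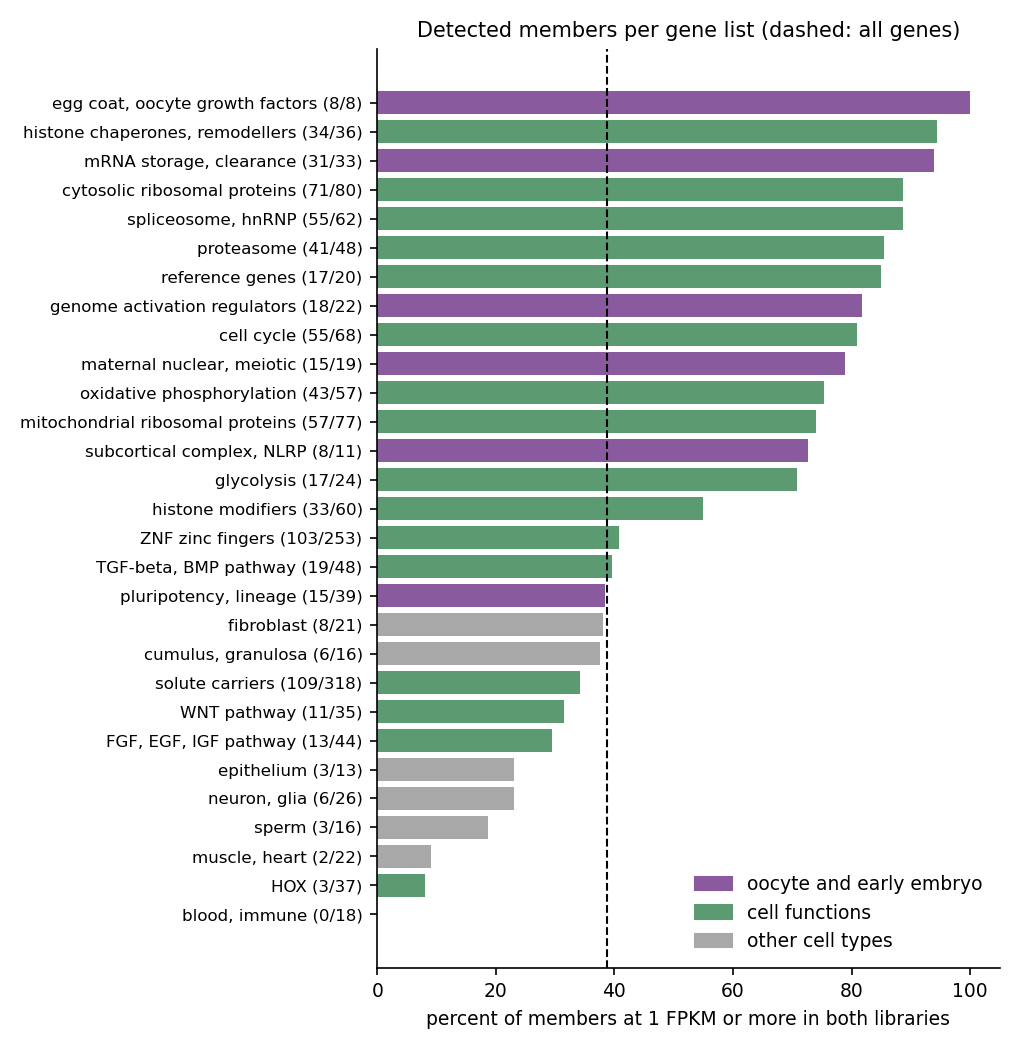
Percent of the found members of each gene list at 1 FPKM or more in both libraries, with detected and found numbers in brackets and the share over all genes (38.8%) as a dashed line. Of the members found, the egg coat list reaches 8 of 8, genome activation regulators 18 of 22, and blood markers 0 of 18.

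Genes of general cell function spanned a wide range. Of 80 cytosolic ribosomal protein genes 71 were detected, with a median of 16.9 FPKM, or 20.3 without replicate 2 and 9.06 without replicate 1. The highest were RPLP0 (399 and 433) and RPSA (330 and 223). The list held 0.955% and 0.626% of the summed FPKM, less than PAIP1 or TMSB4X alone. Of 40 translation factor genes 35 were detected, with a median of 37.97 FPKM, and 27 had a mean of 10 or more. The highest were the initiation factor genes EIF4E, for the cap-binding protein, at 833 and 1101 FPKM, EIF3M at 493 and 463, and EIF4G2 at 462 and 353. EEF2, the elongation factor for translocation, was at 2.34 and 2.05.

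Genes often used as references differed in level by orders of magnitude. HPRT1, of purine salvage, was at 1025 and 939 FPKM, RPLP0 at 399 and 433, YWHAZ at 101 and 99.4, and GAPDH, a glycolytic enzyme, at 84.5 and 85.4. These 4 were close between the libraries. ACTG1, the gamma actin gene, stood at 131 and 145, while ACTB, the beta actin gene, was at 6.24 and 2.51. B2M (223 and 121) and PPIA (205 and 97.7) were higher in replicate 1. YWHAB (38.4 and 43.6), PGK1 (22.3 and 18.8), GUSB (6.81 and 5.90), TFRC (5.23 and 3.81), SF3A1 (3.38 and 5.50), POLR2A (1.35 and 3.55) and TUBB (2.10 and 0.713) were at intermediate to low levels. SDHA (0.285 and 1.36) passed 1 FPKM in replicate 2 only.

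Energy genes were moderate. Of 57 nuclear genes of oxidative phosphorylation 43 were detected, with a median of 6.21 FPKM, led by the ATP synthase subunits ATP5G3 (525 and 440) and ATP5J (293 and 233). In glycolysis, 17 of 24 were detected, and the lactate dehydrogenase genes LDH-A (865 and 967) and LDHB (251 and 193) stood above GAPDH, the next. None of the 16 names looked for of mitochondrially encoded protein genes was among the rows. Mitochondrial RNAs that code for no protein were not looked for.

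The cell cycle list had 55 of 68 members detected and held 5.01% and 4.82% of the summed FPKM, most of it from PTTG1 and CKS1B. AURKA, a mitotic spindle kinase, stood at 858 and 844 FPKM. Of 62 spliceosome and hnRNP genes 55 were detected, with a median of 24.7 FPKM, and of 48 proteasome genes 41, with a median of 9.55. Histone chaperones and chromatin remodellers were detected in 34 of 36 cases, led by HMGN2, a nucleosome-binding protein (923 and 1298), and RBBP7, a histone-binding subunit (536 and 714). Histone-modifying enzymes were lower, 33 of 60 detected with a median of 2.11 FPKM, and SUV39H2, a histone H3 lysine methyltransferase, was highest at 231 and 281. Among 16 DNA methylation genes the maintenance methyltransferase DNMT1 led at 216 and 217, while the de novo enzyme DNMT3B was at 0.786 and 1.08 and DNMT3A at 9.79 and 15.4.

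Signalling lists had shares of detected genes from 29.5% to 39.6%, beside 38.8% over all genes. The WNT list had 11 of 35 detected, led by WNT16 at 51.8 and 52.0 FPKM. The FGF, EGF and IGF list had 13 of 44, led by the ligand HBEGF at 170 and 208. In the TGF-beta and BMP list 19 of 48 were detected, led by BMP15 and GDF9, with the signal transducer SMAD5 at 227 and 227. Of 37 HOX genes, which pattern the body axis later, 3 were detected, and HOXD8 alone passed 10 FPKM (16.1 and 18.8).

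Markers of other cells that a tube of embryos could hold were checked for every member of each list that matched a single row. None of the 18 blood and immune markers found was detected, and their summed level was 1.98 and 6.26 FPKM. Another 6 names, the globins HBB and HBA among them, could not be matched, so their levels are not known. Of 16 cumulus and granulosa markers found, 6 (37.5%, beside 38.8% over all genes) were detected, with sums of 99.9 and 107 FPKM. FOXL2 and HSD3B1 of that list could not be matched. The follicle cell receptor genes FSHR and LHCGR and the hormone genes AMH, INHA and INHBA were listed at 0 in both. Above 10 FPKM were STAR, which moves cholesterol into mitochondria (42.4 and 38.8), HAS2, a hyaluronan synthase (20.6 and 29.4), and the matrix genes TNFAIP6 (19.5 and 19.8) and VCAN (11.4 and 14.2).

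Of 21 fibroblast markers 8 (38.1%, again close to the share over all genes) were detected, with sums of 140 and 132 FPKM, and most of this was DCN, a matrix proteoglycan, at 94.3 and 85.5. The matrix genes LUM (16.1 and 13.0), FN1 (12.2 and 13.5) and SPARC (5.97 and 7.35) followed. COL6A1, COL5A1, MMP2 and S100A4 were listed at 0. The sperm list had 3 of 16 detected, with sums of 67.1 and 48.3 FPKM, chiefly ACRV1, an acrosomal protein, at 55.8 and 33.6. Its protamine PRM2 was at 0.0227 and 0, while PRM1 and LDHC could not be matched to a single row. The epithelial list (3 of 13 found, with 3 names unmatched) summed to 9.48 and 9.73 FPKM. Among tissues that form much later, 2 of 14 liver and pancreas markers and 2 of 22 muscle and heart markers were detected. Detected neuron and glia markers numbered 6 of 26. Names without a single matching row numbered 11 for liver and pancreas, 7 for muscle and heart and 2 for neuron and glia. None of 7 taste receptors was detected. No olfactory receptor symbol was matched to a single row, so their levels are not known. The part of any of these cells in the results was not tested.

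Across the 8741 genes with a mean of 1 FPKM or more the libraries differed by a median of 0.30 on the log2(FPKM + 1) scale, and 8042 (92.0%) lay within a factor of 2 on that scale. Pearson's r across these genes was 0.96, a description over genes that share both libraries. Replicate 1 was at least 2 times higher for 463 genes and replicate 2 for 236. Examples of close agreement among the 200 highest genes were NPM1, a nucleolar chaperone (537 and 536 FPKM), and HIF1A, the oxygen-regulated factor (322 and 321). The median difference over all 8741 genes, replicate 1 minus replicate 2, was -0.06.

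The gaps were not spread evenly over the gene lists. Over all 8741 genes with a mean of 1 FPKM or more, 3865 (44.2%) were higher in replicate 1 and 4876 in replicate 2. Of the 18 genome activation regulators with a mean of 1 FPKM or more, 15 were higher in replicate 1, with a median difference of 1.09, which was 0.64 with no filter on level and 0.67 with a pseudocount of 5. The summed level of all 22 was 1694 FPKM in replicate 1 and 659 in replicate 2. Of 79 cytosolic ribosomal protein genes with a mean of 1 FPKM or more, 73 were higher in replicate 1, with a median of 0.95. In contrast the 8 detected genes of the subcortical complex and NLRP list had a median of -0.54. Of 17 maternal nuclear and meiotic genes 14 were higher in replicate 2, with a median of -0.22, which was -0.36 with no filter on level.

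**Figure D4:**
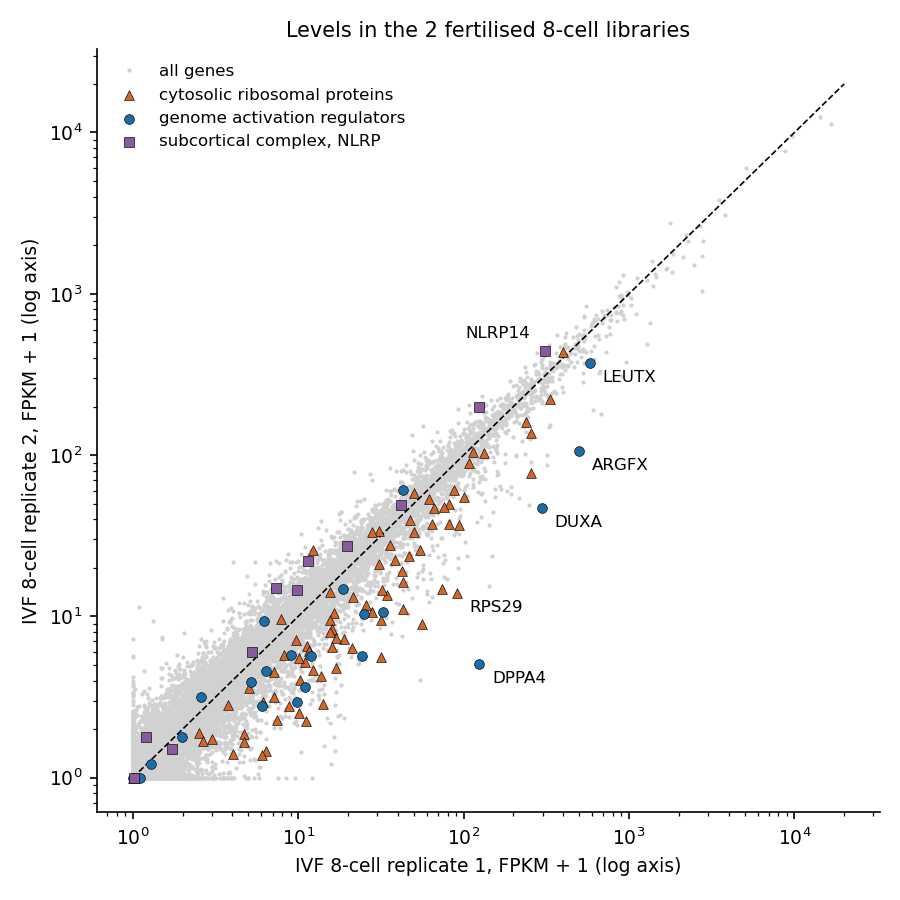
FPKM + 1 in replicate 2 against replicate 1 on log axes for all genes (grey) and 3 gene lists, with the line of equal values dashed. Genome activation regulators such as DPPA4 and DUXA and most ribosomal protein genes lie on the replicate 1 side, and the 8 detected subcortical complex and NLRP genes lie on the replicate 2 side.

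Single genes had wider gaps than the list medians. Among genes with a symbol and a mean of 10 FPKM or more, DPPA4 had the largest difference towards replicate 1, 4.62 on the log2(FPKM + 1) scale. RNF11, a ubiquitin ligase (53.9 and 3.03 FPKM), and ZCCHC10, a zinc knuckle protein (142 and 14.5), came next. The ribosomal protein genes RPS29 (90.7 and 12.9), RPS28 (54.9 and 7.97), RPL35A (30.5 and 4.60) and RPS27A (73.0 and 13.8) were among the 12 widest, as was DUXA. ZIM3, a zinc finger gene that adjoins DUXA in the RefSeq order, was at 214 and 53.6 FPKM.

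Towards replicate 2 the widest gap was that of PABPN1L, an oocyte poly(A)-binding protein gene, at 4.52 and 20.7 FPKM, a difference of -1.98. SIVA1, a cell death regulator (20.9 and 77.6), SLC29A1, a nucleoside transporter (9.35 and 31.6), and CPEB1 were also among the 12 widest in this direction.

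Gene length moved with these gaps. Lengths were recovered from the 2 values of a gene and are the smallest that fit. Among genes with a mean of 10 FPKM or more, the 174 (4.44%) at least 2 times higher in replicate 1 had a median length of 910.5 bases, against 2373 over all 3922 and 1738 for the 59 (1.504%) higher in replicate 2. Of the 461 genes from 500 to under 1000 bases, 13.7% were at least 2 times higher in replicate 1, and of the 996 from 1000 to under 2000 bases, 4.72%. In the shorter of these classes the 28 ribosomal protein genes had a median difference of 0.89 and the other 433 genes one of 0.14. The median length was 579 bases for the ribosomal list and 2637 for the genome activation regulators. Regulators at least 2 times higher in replicate 1 on the log2(FPKM + 1) scale lay on both sides of that median. ARGFX (406 bases), DUXA (498), DPPA4 (900), OTX2 (390), DPPA2 (1191) and KLF17 (1596) were shorter. TFAP2C (4263), ATF1 (4499), KLF3 (2911) and KLF6 (4156) were longer. The part of length in the gaps was not tested.

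**Figure D5:**
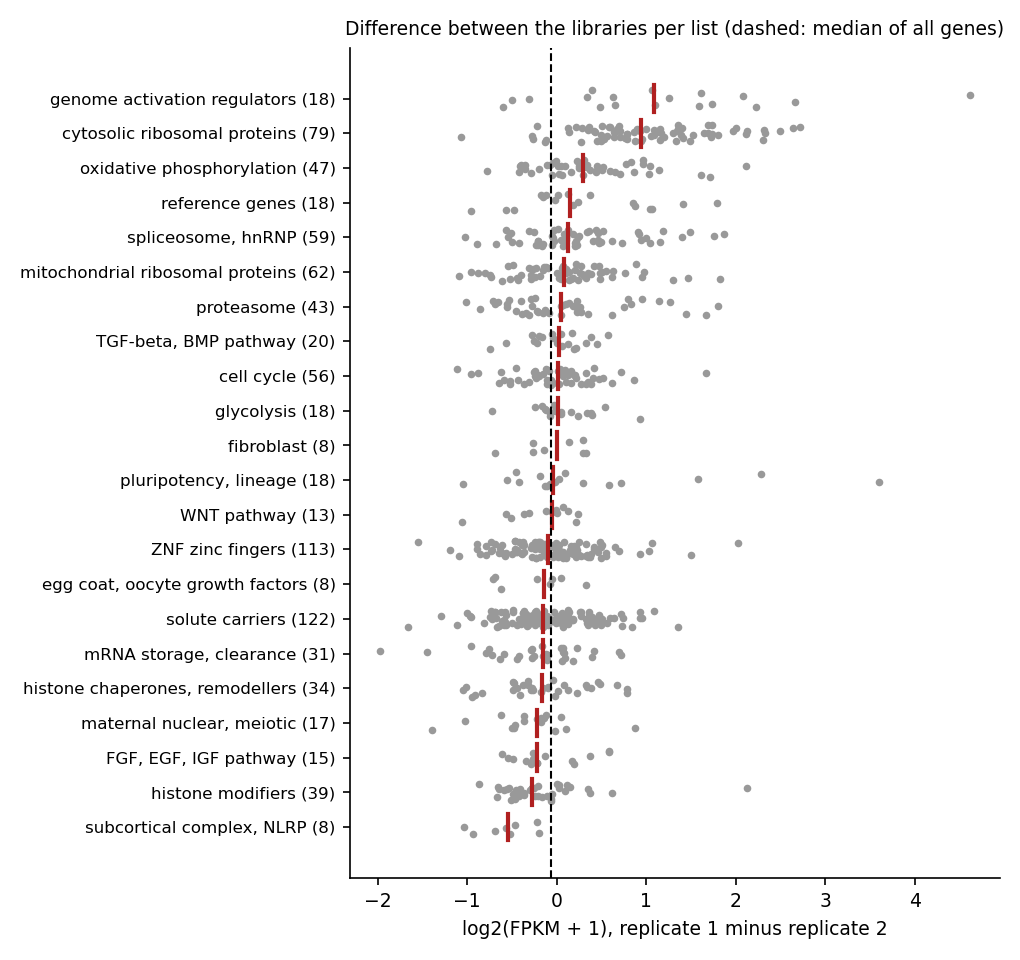
Difference in log2(FPKM + 1), replicate 1 minus replicate 2, of each gene with a mean of 1 FPKM or more (points) and the median (bar) per gene list, with the median of all genes dashed at -0.06. Genome activation regulators (1.09) and ribosomal proteins (0.95) lie to the right and the subcortical complex and NLRP list (-0.54) to the left.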

How the data were processed

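The 2 IVF 8-cell libraries were made by Smart-seq2 from lysed embryos, per the labels' protocols. Reads were handled with fastp, HISAT2 2.2.1 and HTSeq, per the submitters' processing notes. For genome build and annotation, the entry is: not given in the sources used here. The authors deposited FPKM per gene, and no counts were used. FPKM divides by gene length and total, so 1 very abundant gene lowers all others, and Smart-seq2 reads carry no molecular identifiers.

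From these values genes were ranked by mean FPKM and classed, and 44 gene lists were summarised, with Python 3.11.15, pandas 2.3.3 and numpy 2.4.6. Names were matched to RefSeq for 20560 of 20602 rows, 281 rows share a repeated name and 26 names had become dates. Differences use log2(FPKM + 1), computed here. Totals were read from short genes with 1 read (105 and 71 genes), then reads and length as the smallest whole numbers fitting both values, found for 16817 of 16834 genes. In simulated data for 1963 genes this returned the true length or a divisor of it in 99.9% of cases. Length and reads were exactly true in 80.5%, so recovered lengths and reads can be too small.

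Named genes were the 30 highest symbols, the 10 highest LOC genes, the 4 highest of each list, every member of 4 lists, the 12 widest gaps between the libraries in each direction and the 10 closest of the 200 highest. Others, such as ZAR1, FIGLA, EEF2, DNMT3B, POU5F1, SOX2, ZIM3, MYC and NANOG, were chosen after their values were seen. Members and lists were chosen with earlier results of these data known. Some genes that this rule names are not reported here. With 1 group of 2 libraries no test was run.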

Additional observations from a re-analysis of the deposited data

How the results depend on the processing

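Detected genes numbered 4908 at 5 FPKM, against 7995 at 1 FPKM, and 8644 to 8739 in single libraries. Genes under 0.1 FPKM in both libraries numbered 6254, against 3768 listed at 0 in both and 4814 to 5509 listed at 0 in single libraries. The median difference of the genome activation regulators, 1.09, was 0.67 with a pseudocount of 5, 0.64 with no filter and 1.43 with a mean of 5 FPKM or more. The median absolute difference between the libraries, 0.30, was 0.19 with a pseudocount of 5 and 0.15 with no filter. The liver and pancreas list turned from 0.43 to -0.72 with a mean of 5 FPKM or more, on fewer genes. The rankings by each library alone and by mean log2 shared 90, 91 and 97 of the 100 highest genes with the main ranking. Of 238 recomputed list medians of the library difference, 226 stayed within the typical gap between libraries, 11 moved further and 1 reversed. Of 129 recomputed list median levels, 77 stayed within 1 SD of the 2 libraries' medians and 52 moved further. Where a library was left out, the median of the other also set that SD. Those values therefore cannot show how steady the levels are. No paired analysis was possible because 1 group of 2 libraries entered. The alternative for promoter features was not run, since no promoter sequences were used here, and the planned breakdown by chromosome was not run. With 2 libraries, a gap between them has no error of its own. A 0 in a gene of 2000 bases allows up to 0.0545 and 0.0494 FPKM, and low values rest on few reads.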

Other observations

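A few genes usually tied to other tissues or to immune cells were well above the detection level in both libraries. Of 59 interleukin and chemokine genes 9 (15.3%) were detected, beside 38.8% over all genes, and 2 had a mean above 10 FPKM. The chemokine gene CCL25 stood at 91.0 and 192 FPKM and the interleukin gene IL19 at 67.5 and 78.9. The neurofilament gene NEFL was at 30.2 and 23.3 FPKM and the synaptic gene SNAP25 at 11.8 and 11.7, while the calcium-binding protein gene S100B was at 126 and 40.1. MYF5, a muscle determination factor, was listed at 21.5 and 20.4 FPKM on as few as 81 and 85 reads. The solute carrier SLC39A12, a zinc transporter, was at 181 and 233 FPKM, the highest of 318 solute carrier genes, of which 109 (34.3%) were detected.

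KIF20B, a mitotic kinesin of 6075 bases, ranked 6 by reads but 54 by FPKM, at 774 and 683 FPKM. Rows of very short features could reach high FPKM on few bases: rna49406, with a recovered length of 69 bases, stood at 2755 and 1723 FPKM, rank 12. Of 362 rows with a recovered length under 200 bases, 55 had a mean of 10 FPKM or more. Recovered lengths can be too small, so these 362 rows may include longer genes. MYF5 was among the 55. Of 253 genes named ZNF, 103 (40.7%) were detected, close to the 38.8% over all genes. Their median was 0.730 FPKM, and ZNF706 (222 and 225) and ZNF215 (181 and 220) were the highest.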
